A study of Homo sapiens with 2 samples.

Results

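The heat shock chaperones described here are 10 genes chosen by symbol: HSPA1A, HSPA1B, HSPA8, HSPH1, HSPB1, HSPD1, HSPE1, HSP90AA1, HSP90AB1 and DNAJB1. All 10 were found among the 36601 genes of the count tables. Most of their products work mainly in the cytosol and nucleus, whereas HSPD1 and HSPE1 encode the chaperonin pair of the mitochondrion. The RNA came from A549, an established epithelial line of human lung adenocarcinoma, in 2 single-cell libraries: a control library from ordinary 2D culture, and a squashed library from cells held under polydimethylsiloxane (PDMS) micropillars. Sorting followed a recovery of 48 h. Both contain live cells sorted because they had lost a chromosome reporter (ChReporter), so reporter loss is common to the control and the squashed cells; such cells were rare, at about 1 per 500. Which chromosome bears the reporter, how long the confinement lasted and how many cultures stand behind each library were not given in the sources used here. A question the design allows is which transcripts still differed in the sorted cells after confinement; chaperone genes are a standard readout of protein stress.

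Heat shock proteins bind unfolded or partly folded proteins and either hold them in solution, fold them with the help of ATP, or pass them on for degradation. In unstressed cells HSPA8, HSP90AB1, HSPD1 and HSPE1 are made constitutively, while HSPA1A, HSPA1B, DNAJB1 and HSPH1 are induced most by heat, metals and misfolded protein, through the transcription factor HSF1. HSF1 binds the heat shock element, a row of inverted GAA units that lies close to the start site of many of these genes. HSP90 and HSP70 levels are often high in cancer cells, where many kinases and receptors depend on HSP90. Transcript levels after a stress fall back within hours in many cell types, while the proteins last longer.

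The promoter elements of the members are shown because HSF1 is known to act through such elements, and because they show which members carry the letters of the element and which do not. A search of RefSeq promoter windows on GRCh38.p14, from 250 bases before to 50 bases after each start, used both strands and 2 forms of the element: 3 inverted units (GAANNTTCNNGAA or TTCNNGAANNTTC) and 2 inverted units (GAANNTTC or TTCNNGAA), of which the second is contained in the first. The 3-unit form was found in 0.490% of 35116 windows and in 4 of the 10 members, HSPA8, HSPD1, HSP90AA1 and HSP90AB1. The 2-unit form was found in 13.5% of windows and in 8 of the 10, with HSPH1 and HSPE1 as the exceptions. Counted per gene, the 2 forms were present in 0.608% and 16.2% of 27305 genes. A match is a run of letters and not a measured binding site. In the sequences below, read 5′ to 3′ on the strand of the gene, capitals mark the matched units.
HSPA1A, chr6:31815417-31815464, plus strand, inducible HSP70: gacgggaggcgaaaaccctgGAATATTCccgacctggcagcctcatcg
HSPA1B, chr6:31827613-31827660, plus strand, its near-identical neighbour: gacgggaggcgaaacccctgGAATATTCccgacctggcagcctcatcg
DNAJB1, chr19:14518417-14518494, minus strand, with 2 matches: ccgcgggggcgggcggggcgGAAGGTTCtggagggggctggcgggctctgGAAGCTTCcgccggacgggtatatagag
HSPB1, chr7:76302471-76302518, plus strand, small heat shock protein: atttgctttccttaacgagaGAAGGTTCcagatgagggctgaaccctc
HSP90AA1, chr14:102087085-102087152, minus strand: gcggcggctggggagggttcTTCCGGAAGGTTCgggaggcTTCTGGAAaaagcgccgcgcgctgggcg
HSP90AB1, chr6:44247811-44247863, plus strand: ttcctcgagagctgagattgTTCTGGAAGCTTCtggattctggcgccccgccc
HSPA8, chr11:123062170-123062199, minus strand, constitutive HSP70: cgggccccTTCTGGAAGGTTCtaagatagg
HSPD1, chr2:197500062-197500090, minus strand: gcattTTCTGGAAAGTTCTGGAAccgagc

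The matches of HSPA1A and HSPA1B end 99 and 98 bases before their start sites, and that of HSPB1 ends 175 bases before its start. HSPA8 and HSP90AB1 each have another 3-unit match, not printed, that ends 218 and 153 bases before the start. DNAJB1 has a further 2-unit match, also not printed, at bases 1 to 8 after another of its starts. HSPD1 and HSPE1 are transcribed away from each other, and the element printed for HSPD1 lies 294 bases from the RefSeq start of HSPE1, outside the window of that gene. It lies 55 bases from the first HSPE1 start in GENCODE 44, so that HSPE1 lacks a match depends on the annotation used. The stretches around the elements of HSPA8 and HSPD1 overlap annotated exons, and these elements are shown with shorter flanks. Every gene with the 3-unit form also had the 2-unit form by construction.

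The libraries differed in depth and in the kind of cells they held, which touches each level below. After filtering, 1906 control and 1930 squashed cells remained, with 27482392 and 23328323 unique molecular identifiers (UMIs, 1 per captured molecule). The median cell had 12459 UMIs in the control and 9331 in the squashed library. The epithelial markers KRT8, KRT7 and ALDH1A1 stood at 796, 350 and 4472 UMIs per 1000000 of the library (CPM) in control cells and at 1168, 381 and 4031 CPM in squashed cells, while KRT18 went the other way from KRT8, at 1691 and 557 CPM (log2 ratio -1.60). EPCAM was at 0.182 and 0 CPM and CDH1 at 7.86 and 4.12 CPM. The 6 fibroblast markers summed to 7.82 and 6.39 CPM, and PTPRC, CD3E, NKG7, CDH5, KDR and CLDN5 were at 0 in both libraries; CD68, at 13.4 and 21.8 CPM, and EGFL7, at 44.8 and 10.2 CPM, were the measured genes of the immune and endothelial lists. Only 4 barcodes occurred in both libraries, 2 of them among kept cells. Each group is 1 library, so replicate error is unknown and no test was made. Intervals are exact 95% intervals for counting error alone, and a gene is counted as higher or lower by size, at 1.5-fold or more.

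The 10 chaperone genes together made up 0.899% of all UMIs in the control library and 0.931% in the squashed library, which is 8986 and 9307 CPM. Of the members, 9 reached 20 CPM in at least 1 library, the floor for a measured gene, and HSPA1B stayed below it. HSPB1 was the 1 member of those 9 whose squashed level was 1.5-fold or more above the control level, against a background of 3.48% of the 4307 measured genes. None of the 9 was at least 1.5-fold lower, a size that 12.4% of measured genes reached. The median log2 ratio of squashed over control was -0.07 over the 9 members and -0.14 over all measured genes. With trimmed-mean (TMM) scaling in place of total UMIs, these medians became 0.08 and 0.03, and the split of all genes past 1.5-fold moved from 150 higher and 532 lower to 247 higher and 361 lower. That scaling moves every member by 0.15. Relative to the median of all genes, the log2 ratios were 0.03 for HSPA1A, 0.06 for DNAJB1, 0.10 for HSP90AB1 and -0.09 for HSPE1, of which the first 3 have the opposite sign to the ratios on total UMIs below. HSPA1A, HSP90AB1 and DNAJB1 changed sign with it, to 0.04, 0.11 and 0.08, and a list median given below within 0.15 of 0 may do so too, as that of TRiC did (0.07).

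HSPB1 encodes HSP27, a small heat shock protein that holds unfolded proteins without ATP and binds actin filaments. It was counted in 4693 UMIs of the control library, or 171 CPM, and in 7075 UMIs of the squashed library, or 303 CPM. The squashed level was 1.78-fold higher, a log2 ratio of 0.83 (0.78 to 0.88), above that of 98.3% of measured genes and 0.96 above their median. The next members in order of ratio were HSPA1B at 0.24 and HSP90AA1 at 0.19, so HSPB1 stood apart from the other members in size of change.

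**Figure D1:**
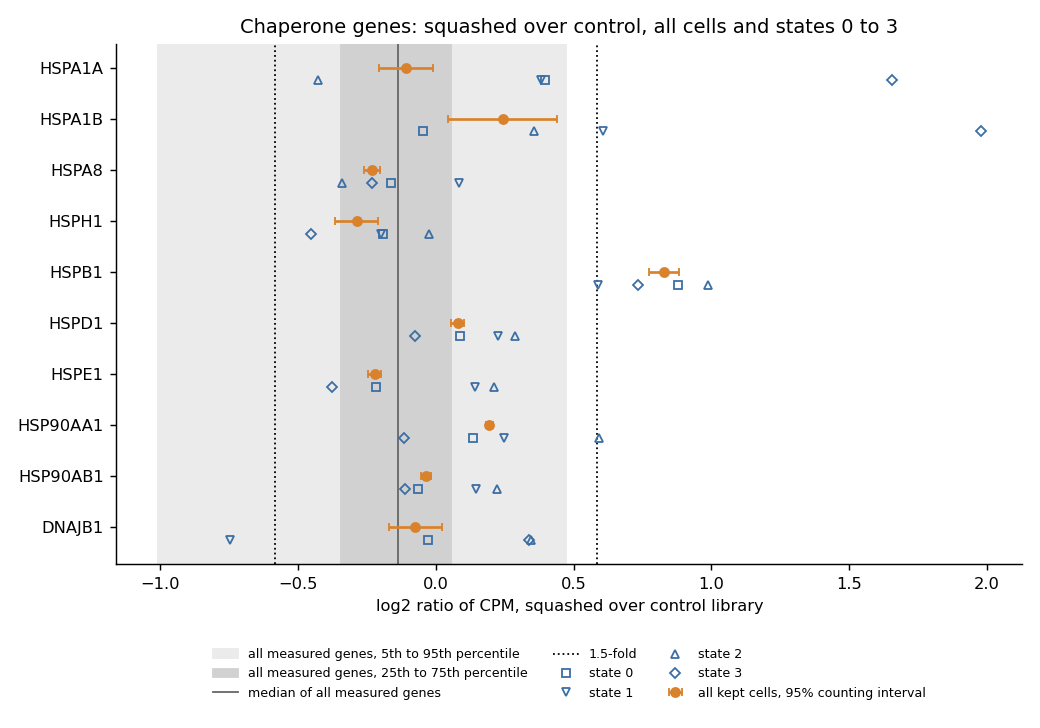
The horizontal axis is the log2 ratio of CPM in the squashed over the control library, and each row is 1 of the 10 chaperone genes. Orange points show all kept cells with a 95% counting interval, blue symbols show states 0 to 3 of cells, and grey bands give the spread of the 4307 measured genes; HSPB1 at 0.83 lies right of the dotted 1.5-fold line, and the state 3 points of HSPA1A and HSPA1B at 1.66 and 1.98 rest largely on 1 cell.

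The stress-inducible HSP70 genes lie 9791 bases apart on chromosome 6, at 31815543-31817946 for HSPA1A and 31827738-31830254 for HSPA1B (GRCh38). Their coding sequences are 99.8% identical over 1926 bases and their 3′ untranslated regions 48.4%, so the division of counts between them is uncertain. HSPA1A was found at 69.0 CPM in control cells and 64.0 CPM in squashed cells (log2 ratio -0.11, -0.21 to -0.01). HSPA1B was found at 15.5 and 18.3 CPM (0.24, 0.05 to 0.44). Their ratios had opposite signs, and the count of HSPA1A per HSPA1B was 4.46 in the control and 3.49 in the squashed library. A single squashed cell, described below, held 7.57% of the library's HSPA1A UMIs and 9.60% of its HSPA1B UMIs. Without the highest cell of each library the ratios were -0.22 and 0.10.

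DNAJB1 (HSP40), the J-domain partner that brings substrates to HSP70 and starts its ATP cycle, stood at 72.0 CPM in control cells and 68.4 CPM in squashed cells. Its log2 ratio of -0.07 (-0.17 to 0.02) has an interval that spans 0. HSPH1 (HSP110) exchanges the nucleotide of HSP70 and works with it to take aggregates apart. It stood at 119 and 97.2 CPM, a log2 ratio of -0.29 (-0.36 to -0.21), which is 0.15 below the median of all genes. The 4 inducible members together summed to 275 CPM in control cells and 248 CPM in squashed cells (-0.15, -0.20 to -0.10), close to the median gene.

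HSPA8 (HSC70), the constitutive HSP70 that folds new proteins and uncoats clathrin vesicles, stood at 870 CPM in control cells and 741 CPM in squashed cells, short of 1.5-fold. Its log2 ratio was -0.23 (-0.26 to -0.20), 0.10 below the median of all genes. HSP90AB1, the constitutive HSP90, stood at 1823 and 1778 CPM (-0.04, -0.05 to -0.02). HSP90AA1, the more inducible HSP90, was the most abundant member in both libraries, at 3480 and 3983 CPM (0.19, 0.18 to 0.21). The HSP90 pair accounted for 59.0% of member UMIs in the control and 61.9% in the squashed library. HSP90AA1 outnumbered HSP90AB1 by 1.91 in the control and 2.24 in the squashed library.

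In the mitochondrial matrix HSPD1 (HSP60) forms the folding chamber and HSPE1 (HSP10) its lid, and the genes share a start region on chromosome 2. HSPD1 was at 1124 CPM in control cells and 1189 CPM in squashed cells (0.08, 0.06 to 0.10). HSPE1 was at 1243 and 1066 CPM (-0.22, -0.25 to -0.20). HSPE1 was thus the higher of the pair in the control library and HSPD1 in the squashed library, with 0.905 and 1.12 HSPD1 UMIs per HSPE1 UMI. That exchange of the third and the fourth rank was the sole difference in the order of the 10 levels between the libraries. The annotation lists 26 pseudogenes of HSPE1, 18 of HSPD1 and 17 of HSPA8; none of them has a row in the count tables, so how reads from such copies were handled cannot be seen in the counts.

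Other chaperone families were described from lists of genes that work with the members. Of all 4307 measured genes, 3.48% were at least 1.5-fold higher, 12.4% were lower and 84.2% stayed within 1.5-fold. These shares are the background for the count of each list below. Of HSF1, HSF2 and HSF4, only HSF1 was measured, at 28.2 CPM in control cells and 21.6 CPM in squashed cells (-0.39, -0.55 to -0.23). Among 4 measured relatives of HSP70 and HSP110, 2 were at least 1.5-fold lower and none higher: HSPA2 at 68.0 and 29.8 CPM (-1.19) and HSPA4, the HSP110-type partner of HSP70, at 115 and 51.3 CPM (-1.17). HSPA4L had a log2 ratio of 0.08. The strictly stress-induced HSPA6 was nearly absent, at 0.364 and 0.129 CPM.

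Of 12 measured J-domain proteins, 1 was at least 1.5-fold higher and 1 lower, with a median log2 ratio of -0.14. DNAJB4 stood at 12.9 CPM in control cells and 22.3 CPM in squashed cells (0.79), and DNAJC2, which acts at the ribosome, at 50.3 and 26.9 CPM (-0.90). Of these, DNAJB4 reached the floor of 20 CPM only in the squashed library, where it was higher. DNAJC8 had a log2 ratio of 0.37, and DNAJA1, a main cytosolic partner of HSPA8, stood at 322 and 369 CPM (0.20). Of 7 measured cochaperones of HSP70, none was at least 1.5-fold higher and 1 was lower, HSPBP1, a nucleotide exchange factor, at 47.0 and 27.8 CPM (-0.76). ST13, which stabilises HSP70 in its ADP form, had a log2 ratio of 0.53 and SIL1 one of 0.46, and the HSF1 target BAG3 stood at 36.4 and 37.6 CPM (0.05). HSPB11 was the measured gene of the list of other small heat shock proteins, with a log2 ratio of -0.16. Below the floor in that list, CRYAB (alpha-B crystallin) stood at 8.11 and 12.9 CPM (0.66, 0.41 to 0.92) and HSPB8 at 5.75 and 7.42 CPM (0.37, 0.05 to 0.69), and with a floor of 5 CPM the median of the list was 0.37.

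All 12 measured cochaperones of HSP90 stayed within 1.5-fold, as did 84.2% of all measured genes, with a median log2 ratio of 0.01. The log2 ratio was -0.33 for CACYBP, -0.30 for PTGES3 (p23) and 0.24 for the kinase-loading factor CDC37. STIP1 (HOP), which links HSP70 to HSP90, stood at 230 and 206 CPM (-0.15). All 8 subunits of the cytosolic chaperonin TRiC also stayed within 1.5-fold, with a median log2 ratio of -0.09. TCP1 had the lowest log2 ratio of them, -0.39, followed by CCT4 at -0.15 and CCT3 at -0.12. In prefoldin, which delivers actin and tubulin to TRiC, 1 of 6 subunits was at least 1.5-fold higher, PFDN1 at 81.3 and 136 CPM (0.75). PFDN6 had a log2 ratio of -0.23 and VBP1 one of -0.06.

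Among 10 other measured chaperones and proteases of the mitochondrion, 1 was at least 1.5-fold higher and 2 lower, with a median log2 ratio of -0.14. The matrix protease LONP1 was at 20.8 CPM in control cells and 7.67 CPM in squashed cells (-1.43), CLPX at 39.7 and 18.0 CPM (-1.14), and TIMM44, part of the import motor, at 13.7 and 24.3 CPM (0.83). LONP1 and CLPX reached the floor of 20 CPM only in the control library and TIMM44 only in the squashed library. Each thus counted as measured only through the library where it was higher. HSPA9, the HSP70 of the matrix, was at 246 and 223 CPM (-0.14). Among 10 chaperones of the endoplasmic reticulum, 3 were at least 1.5-fold lower and none higher. All 10 log2 ratios were below 0 on total UMIs, with a median of -0.37. Of all measured genes, 31.6% had a log2 ratio above 0 and 12.4% were at least 1.5-fold lower. CALR, a lectin chaperone, was at 417 and 194 CPM (-1.10), DNAJB11 at 59.4 and 28.8 CPM (-1.05) and DNAJC3 at 32.3 and 21.3 CPM (-0.60), while HSPA5 (BiP) was at 340 and 308 CPM (-0.14). Of 10 immediate early genes, which respond to dissociation and other acute stress, 4 were measured, with 2 at least 1.5-fold lower and none higher. These were IER3, at 84.6 and 18.9 CPM (-2.16), and DUSP1, at 42.5 and 28.2 CPM (-0.59). IER3 reached the floor of 20 CPM only in the control library. FOS was measured and within 1.5-fold, and EGR1, JUN and ATF3 were below the floor. FOS stood at 27.4 and 21.0 CPM, EGR1 at 13.4 and 8.49 CPM, JUN at 5.82 and 5.19 CPM and ATF3 at 0.655 and 1.03 CPM.

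The members were then read in states of cells, from clusters made without any chaperone gene and with each gene centred within its library. State 0 was led by TUBA1C, CKS2, CCNB1 and TOP2A, with a G2/M call for 94.6% of control and 89.5% of squashed cells. Next, state 1 was led by AKR1B1, SNHG29 and TPM2 in cells with few genes, with medians of 1387 and 1303. State 2 was led by the nuclear RNAs MALAT1 and NEAT1, and state 3 by PTTG1, H2AFZ and MTRNR2L12. A G2/M call was also made for 72.8% of control and 70.0% of squashed cells of state 3. State 4 held 47 cells of each library and too few UMIs for most members. State 1 held 15.6% of control and 35.6% of squashed cells, so a gene that differs between states also moves with this share in the totals above; that part was not tested. Within state 1 the libraries also held different cells: at Leiden resolution 1, 57.5% of its control cells but 0.158% of its squashed cells fell in 1 finer cluster, and 20.4% and 78.5% in another. Ratios in state 1 therefore compare mostly different clusters.

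HSP90AA1, HSP90AB1, HSPA8, HSPH1 and HSPD1 were highest in state 0, the state richest in G2/M calls, in both libraries, and HSPE1 was as well. The level of HSP90AA1 in the control library was 5333 CPM in state 0, 2848 in state 1, 1930 in state 2 and 3891 in state 3. In the squashed library it was 5856, 3380, 2908 and 3590 CPM, so the log2 ratio ran from -0.12 in state 3 to 0.59 in state 2. HSPE1 ranged from 545 CPM in state 1 to 1843 CPM in state 0 in the control library, and from 602 to 1584 CPM in the squashed library. Its ratio was below 0 in states 0 and 3 (-0.22 and -0.38) and above 0 in states 1 and 2 (0.14 and 0.21). In the finer cluster that held 58 control and 498 squashed cells, most of the squashed part of state 1, the ratio was -0.31 for HSPE1 and -0.13 for HSP90AA1, against 0.14 and 0.25 in state 1. DNAJB1 ranged most widely, from 8.98 CPM in state 1 to 115 CPM in state 0 of the control library and from 5.36 CPM in state 1 to 118 CPM in state 3 of the squashed library; without the highest cell of each library, described below, the latter was 102 CPM, under the 112 CPM of state 0. The sum of all 10 members was 13159 and 13416 CPM in state 0, and 5757 and 7210 CPM in state 2.

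HSPB1 varied least over the states. It stood at 168, 185, 151 and 216 CPM in states 0, 1, 2 and 3 of the control library and at 310, 279, 299 and 358 CPM in the same states of the squashed library. The lowest squashed value lay above the highest control value, and the ratios were 0.88, 0.59, 0.99 and 0.73. HSPB1 was likewise higher in cells called G1 (163 and 288 CPM), S (162 and 317 CPM) and G2/M (178 and 308 CPM). With finer clusters, at resolution 1, the lowest ratio was 0.46, in the cluster of 58 control and 498 squashed cells (199 and 274 CPM); 2 other clusters held 164 and 1 or 1 and 16 cells of the libraries and give no useful ratio.

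HSPA1A followed another order than the members that were highest in state 0. Its control levels were 44.3, 16.8, 121 and 26.2 CPM in states 0 to 3, so that state 2 was the highest, and its squashed levels were 58.3, 22.0, 90.4 and 82.6 CPM. The ratio was -0.43 in state 2 and 1.66 in state 3. HSPA1B had 8.72 and 34.7 CPM in state 3, a ratio of 1.98. Without the highest cell of each library, the state 3 ratios were 0.16 (-0.32 to 0.62) for HSPA1A and 0.81 (0.07 to 1.54) for HSPA1B.

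**Figure D2:**
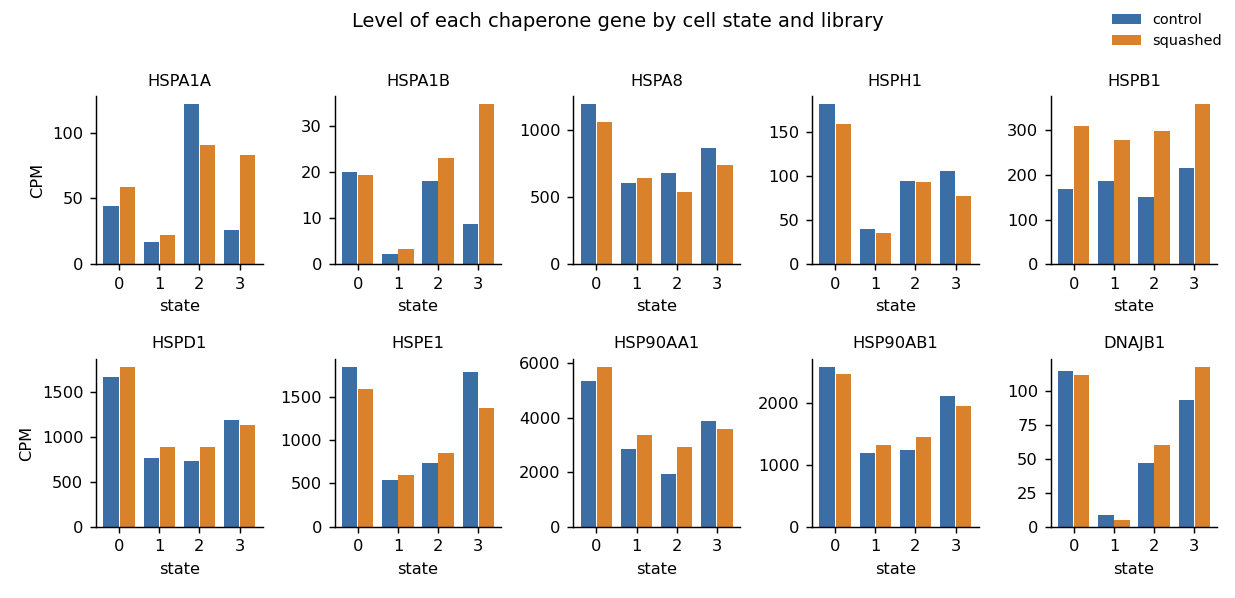
Each panel is 1 chaperone gene, with cell states 0 to 3 on the horizontal axis and CPM on the vertical axis, which starts at 0 and differs between panels; blue bars are the control and orange bars the squashed library, with no error bar because each bar is 1 library. HSPB1 is at 279 CPM or more in every squashed bar and at 216 CPM or less in every control bar, while HSP90AA1 and most other members are highest in state 0.

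Mitochondrial share moved with several members. Its median was highest in state 2, at 14.3% of UMIs in control and 12.2% in squashed cells. That state also had the most genes per cell, with medians of 4195 and 4068. The split at 10% is therefore not independent of the states, and in state 2 a high share went with many genes per cell. The class over 10% held 612 squashed cells and state 2 held 357, so part of that class lay elsewhere. Genes per cell were not counted within the class. Cells with over 10% mitochondrial UMIs made up 28.9% of the control and 31.7% of the squashed library. In those cells HSPA1A was at 111 CPM in control cells and 78.1 CPM in squashed cells (-0.51), and in the others at 38.3 and 52.7 CPM (0.46). HSP90AA1 was at 2288 and 3625 CPM in cells over 10% (0.66), and at 4343 and 4268 CPM in the others (-0.03). HSPE1 was at 779 and 925 CPM over 10% (0.25) and at 1578 and 1178 CPM in the others (-0.42). HSPA1A, HSP90AA1, HSP90AB1, HSPD1, HSPE1 and DNAJB1 thus had opposite signs in these 2 kinds of cells, and their ratios over all cells, given above, mix the 2. HSPB1 was higher in the squashed library in both, at 151 and 299 CPM over 10% (0.98) and at 185 and 306 CPM in the others (0.73), while HSPA8 was lower in both (-0.22 and -0.22).

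Shares of cells with a UMI were compared after thinning each cell to 2000 UMIs, which left 1825 control and 1782 squashed cells and left out 81 and 148. HSPB1 was seen in 29.2% of control cells (27.1 to 31.3) and in 45.8% of squashed cells (43.5 to 48.1); without thinning the shares were 82.2% and 84.1%. HSPH1 was seen in 19.3% and 14.5% of thinned cells, DNAJB1 in 13.5% and 10.8%, HSPA1A in 9.48% and 7.74%, and HSPA1B in 3.51% and 2.69%. The intervals of DNAJB1, HSPA1A and HSPA1B overlapped between the libraries. HSPE1 was seen in 82.9% and 77.7%, HSPA8 in 75.3% and 72.1%, HSPD1 in 82.2% and 84.1%, HSP90AB1 in 93.3% and 92.5% and HSP90AA1 in 97.2% and 98.0%. No cell type that lacks these genes is present, so the share that free RNA gives could not be measured.

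In cells with at least 10000 UMIs, thinned to that number, HSPB1 shifted as a whole. The median cell held 1 HSPB1 UMI among 1190 control cells and 3 among 906 squashed cells, the 90th percentile was 4 and 6, and 22.4% and 7.62% of cells held none. Its variance over mean was 1.23 in the control and 1.34 in the squashed library, near the medians of 1.29 and 1.37 for genes of like mean. HSP90AA1 was far more uneven, with a variance over mean of 14.4 in each library against medians of 4.61 and 4.16 for genes of like mean, and with 11 to 66 UMIs between the 10th and the 90th percentile of control cells and 14 to 74 in squashed cells.

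HSPA1A was concentrated in few cells. The median cell held 0 in each library, and the top 5% of cells held 33.7% of HSPA1A UMIs in the control and 41.7% in the squashed library. The squashed share includes 1 cell with 87 UMIs and was not recomputed without it. Such shares are larger for scarcer genes, as for HSPA1B (48.5% and 53.4%). Genes of like mean had a median variance over mean of 1.16 in the control and 1.19 in the squashed library. For HSPA1A the variance over mean was 2.14 and 13.8, and 1.80 in the squashed library without its highest cell. For HSPA1B the values were 1.28 and 6.56, and 1.19 without that cell, and for DNAJB1 1.43 and 2.55, and 1.59 without it. HSPH1 was alike in the libraries, at 1.64 and 1.53.

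**Figure D3:**
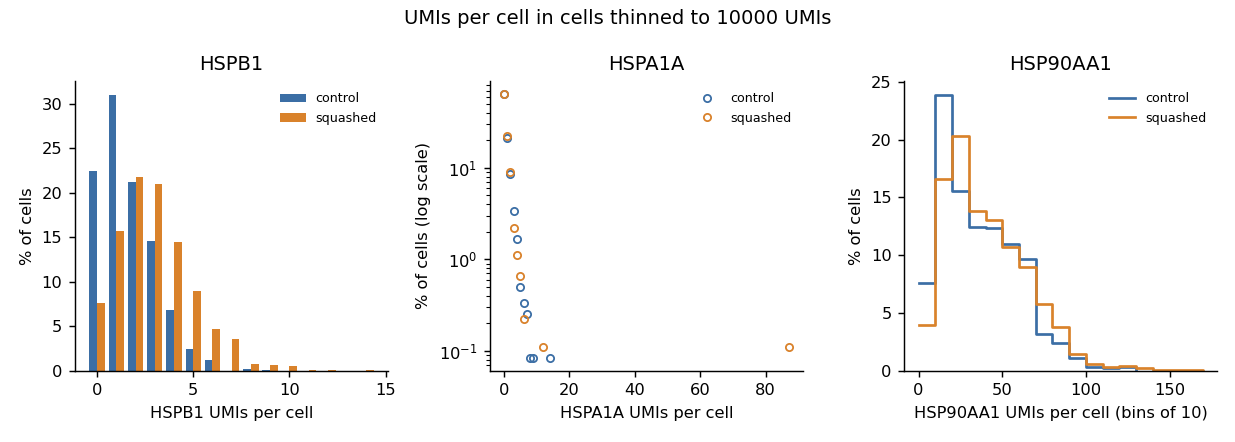
The horizontal axes give UMIs of HSPB1, HSPA1A and HSP90AA1 per cell, and the vertical axes the percent of cells (log scale for HSPA1A), in 1190 control (blue) and 906 squashed (orange) cells thinned to 10000 UMIs. The HSPB1 distribution of the squashed library is moved to the right as a whole, from a median of 1 to a median of 3, whereas the HSPA1A distributions overlap except for 1 squashed cell at 87 UMIs.

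That cell held 195 UMIs of the 4 inducible members among 13483, or 145 per 10000, where the next squashed cell held 32.4 and the median of 1782 cells was 1.55. It contained 113 UMIs of HSPA1A, 41 of HSPA1B, 34 of DNAJB1 and 7 of HSPH1, together with 39 of DNAJA1, 11 of HMOX1, 5 of BAG3 and 0 of HSPA6. It also held 11 UMIs of HSPB1 and 57 of HSP90AA1. The cell lay in state 3, was called G1, had 2314 genes and 7.76% mitochondrial UMIs, and was not called a doublet. The highest control cell had 24.6 inducible UMIs per 10000, all of them HSPH1, and the next had 22.9. HMOX1, the heme oxygenase induced by oxidative and heat stress, was named after its value had been seen.

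Over the same cells the HSP90 genes and the mitochondrial pair had the highest correlations. Pearson's r of log2(UMIs + 1) between HSPD1 and HSP90AA1 was 0.65 in the control and 0.62 in the squashed library, that between HSPD1 and HSPE1 0.64 and 0.57, between HSP90AA1 and HSP90AB1 0.63 and 0.63, and between HSPD1 and HSP90AB1 0.61 and 0.65. The constitutive HSPA8 had lower values with these 4 genes, from 0.46 to 0.51 in the control and from 0.32 to 0.44 in the squashed library. Over all 45 pairs the median r was 0.15 and 0.21, and the lowest was -0.14 and -0.03. HSPA1A and HSPA1B had an r of 0.21 and 0.33 with each other, and the highest r of HSPB1 with any member was 0.06 in the control and 0.11 in the squashed library. The cells of a library share their preparation and include all states, counting noise lowers r for scarce genes, and these values are given as descriptions.

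**Figure D4:**
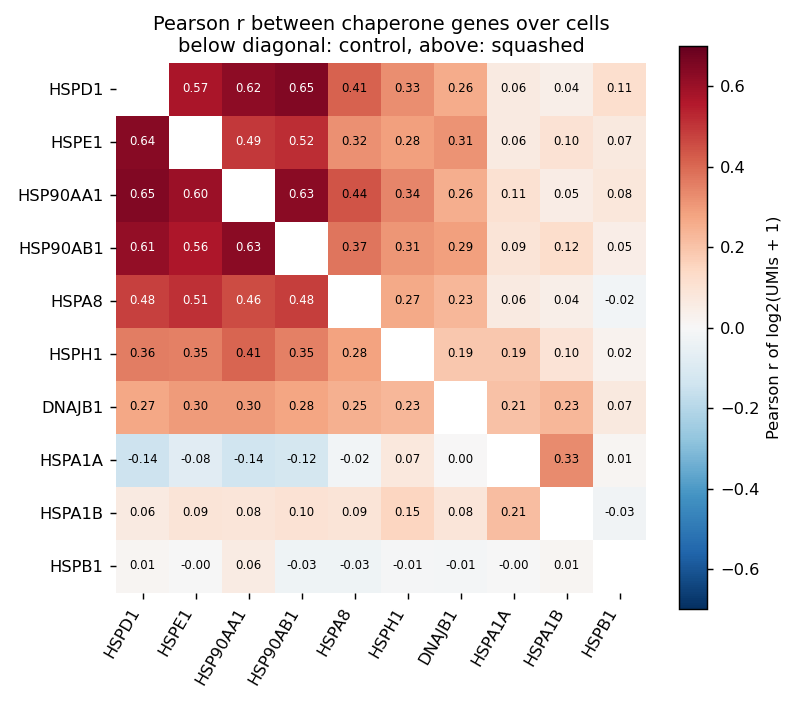
Each square is Pearson's r of log2(UMIs + 1) between 2 chaperone genes over cells thinned to 10000 UMIs, with 1190 control cells below the diagonal and 906 squashed cells above it, on a colour scale from blue (negative) to red (positive). HSPD1, HSPE1, HSP90AA1 and HSP90AB1 form a block with r from 0.49 to 0.65, and the row and column of HSPB1 are close to 0.

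Genes outside the members were ranked by likeness to the summed UMIs of HSPA1A, HSPA1B, DNAJB1 and HSPH1, using the lower r of the 2 libraries over the same cells. Of 3658 genes with at least 20 CPM in both, those with the highest values were H3F3B, a histone H3.3 gene, at 0.42, PTMA at 0.32, DYNLL1 at 0.32, the HSP90 cochaperone STIP1 at 0.32, and the mitotic genes CKS2 and TOP2A at 0.31 and 0.31. The members HSPE1 and HSP90AA1 had 0.35 and 0.32. The median over all genes was 0.06 and the 99th percentile 0.27, and HSPB1, at -0.02, was at rank 3029.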

How the data were processed

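UMI counts per gene and barcode were used as the authors deposited them, as whole numbers without normalization; features were matched by symbol. They were made with a 10x Genomics Chromium 3.1 kit and Cell Ranger, on GRCh38. The version of Cell Ranger is 4.0.0 per the file headers, but the labels' design text has 5.0.1. The submitters' processing notes add R 4.3.2. The gene names and barcodes deposited beside them carry no values.

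Cells with at least 1000 UMIs, 500 genes and at most 20% mitochondrial UMIs were kept. Counts were summed per library and scaled to CPM by total UMIs, and log2 ratios used a prior of 0.5. With 1 library per group no test was made, and ratios compare libraries. Intervals are Clopper-Pearson. States came from Leiden clustering at resolution 0.5 (2000 variable genes, 30 components, 15 neighbours) of cells thinned to 2000 UMIs. Scrublet marked 16 control and 15 squashed cells, which were kept. Python 3.11.15, scanpy 1.11.5, scipy 1.17.1, R 4.3.3 and edgeR 4.0.16 (TMM factors) were used; positions came from GENCODE 44. The ratio step was tested on simulated data.

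The members and gene lists were chosen with earlier results of these data known. Named genes are all members, up to 3 measured genes of largest absolute ratio per chaperone list, HSF1, HSPA9, HSPA5, BAG3, DNAJA1 and STIP1, the 6 genes most like the inducible members, and 4 immediate early genes; HSF2, HSF4, HSPA4L, HSPA6, CRYAB, HSPB8, IER3, DUSP1 and HMOX1 and the cell type markers were named besides. For HSPA14, which has more than 1 row under its symbol, 1 row was used. Leaving out the highest cell and the split at 10% mitochondrial UMIs were added after the data had been seen.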

Additional observations from a re-analysis of the deposited data

How the results depend on the processing

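HSPB1 was at least 1.5-fold higher under all 15 alternatives (the floors for measured genes cannot change a ratio), with log2 ratios from 0.71 to 0.98: 0.74 with a stricter cell filter, 0.71 in cells thinned to 2000 UMIs, 0.74 as a mean over cells, 0.98 with TMM, 0.90 without cells under 2000 genes, and 0.73 with the stricter filter and without the highest cell. No other member reached 1.5-fold under these alternatives. Within the mitochondrial classes and states 0 to 3, however, HSP90AA1 did in cells with over 10% mitochondrial UMIs (0.66) and in state 2 (0.59). HSPA1A did in state 3 (1.66, but 0.16 without the highest cell of each library). HSPA1B did in states 1 and 3 (0.61 and 1.98, the latter 0.81 without those cells), and DNAJB1 in state 1 (-0.75). Among phase calls, HSPA1A did in S (-0.62, -0.88 to -0.37), against 0.29 in G2/M. Finer clusters are not listed in full here. In that of 385 control and 252 squashed cells, HSPA1B had 0.71 (0.38 to 1.05). In state 1, HSPA1B rested on 7 control and 18 squashed UMIs (-0.66 to 2.17). DNAJB1 rested there on 30 and 29 UMIs (-1.53 to 0.04), and both intervals span 0. HSPA8, HSPH1 and HSPE1 stayed below 0 in all 15 alternatives, from -0.25 to -0.08, -0.46 to -0.12 and -0.42 to -0.07. The others took both signs: HSPA1A ran from -0.22 to 0.46, HSPA1B from -0.13 to 0.39, HSPD1 from -0.03 to 0.23, HSP90AA1 from -0.02 to 0.35, HSP90AB1 from -0.16 to 0.11 and DNAJB1 from -0.27 to 0.09. Under TMM 7 of the 10 ratios were above 0, against 4 with total UMIs. Over the lists and alternatives, 13 medians moved outside an interval and 136 did not. That interval was taken over the genes of the list, or was the counting interval where 1 gene was measured. In short lists, such as the 8 subunits of TRiC, it ran from the lowest to the highest ratio. Staying inside it therefore says little about stability. No paired analysis was possible because each group has 1 library. Depth limits HSPA1B most, with 425 and 427 UMIs, and replicate error is unknown.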

Other observations

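Barcodes that the filter removed, 668 in the control and 1202 in the squashed library, had median mitochondrial shares of 43.1% and 37.0%. In them HSPB1 stood at 87.9 CPM in control and 156 CPM in squashed barcodes, and HSP90AA1 at 1489 and 2311 CPM, both below the kept cells. HSPE1 stood at 493 and 476 CPM and HSPD1 at 490 and 597 CPM. HSPA1A was near its level in kept cells, at 67.1 and 58.8 CPM.

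Among cells with at least 7 UMIs of the inducible members after thinning to 10000, which were 86 of 1190 control and 55 of 906 squashed cells, 66.3% and 67.3% lay in state 0, which held 39.7% and 36.6% of all cells of that depth. None of them lay in state 1 in either library. Their mean HSP90AA1 was 54.1 and 61.6 UMIs against 34.7 and 39.3 in the other cells, and their mean HSPB1 1.65 and 2.85 against 1.66 and 3.0. These cells were chosen by the inducible members themselves, and the values are a description.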
